A study of Mus musculus with 7 samples.

Results

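A set of 10 Trim genes that lie side by side on mouse chromosome 7 was followed in contused spinal cord. They are Trim5, Trim6, Trim12a, Trim12c, Trim30a, Trim30b, Trim30c, Trim30d, Trim34a and Trim34b. They were chosen by symbol, and all 10 were found among the 21965 genes of the count table. RNASeq was run on the injury epicenter of the spinal cord, a 5 mm segment taken 3 days after a moderate contusion (50 kdyn) at thoracic level T9, so every mouse in the comparison was injured. One library per mouse, with no pooling, was made from 3 mice labelled Arntl knockout, of which 2 were female, and from 4 WT mice with 2 of each sex, all young adults matched for age. The knockout strain was B6.129-Arntl tm1Bra/J on C57BL/6 (C57BL/6J in the study's methods), written Bmal1-/- here after the protein BMAL1 that Arntl encodes, and the allele is present in all cells of the mouse. The knockouts came from heterozygote crosses, since homozygotes do not breed, whereas the WT mice were C57BL/6J, purchased apart from 1 littermate of a knockout. The name B6.129 records an allele that was moved to C57BL/6 from another mouse strain. The Trim genes lie 8.7 Mb from Arntl on the same chromosome, so effects of the Arntl allele and of chromosome 7 sequence inherited together with it cannot be told apart in these groups.

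TRIM proteins carry a RING domain, a B-box and a coiled coil, and many of them are E3 ubiquitin ligases of the innate immune response. The group on chromosome 7 includes the rodent counterparts of primate TRIM5, a restriction factor that recognises retroviral capsids in the cytoplasm. Many TRIM genes are induced by type I interferon, whose receptor signals through STAT and IRF proteins to the interferon-stimulated response element (ISRE). In contused spinal cord, microglia and infiltrating leukocytes are among the cells that respond to interferon and to Toll-like receptor ligands. BMAL1 forms a heterodimer with CLOCK that binds the E-box and drives the circadian clock.

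The cluster spans 289.1 kb of GRCm38, with 3 genes on the plus strand and 7 on the minus strand. In order along the chromosome the genes are Trim6 (chr7:104218793-104235152, plus strand), Trim34a (chr7:104244457-104262234, plus), Trim5 (chr7:104263386-104288094, minus), Trim12a (chr7:104299894-104315466, minus) and Trim34b (chr7:104329471-104336909, plus). They are followed by Trim12c (chr7:104338754-104353362, minus), Trim30b (chr7:104355382-104369884, minus), Trim30c (chr7:104382065-104400837, minus), Trim30a (chr7:104409025-104465193, minus) and Trim30d (chr7:104470014-104507849, minus). Close relatives are not all side by side: Trim34b lies between Trim12a and Trim12c, and Trim5 and Trim12a lie between Trim34a and Trim34b. Exons of Trim34a share 609 bases with the antisense gene Gm47248, and exons of Trim5 and Trim12c contain a small nuclear RNA gene each (108 and 100 bases). None of these overlapping genes has a row in the count table, and the strand setting of the counting is not given in the sources used here.

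The sequences around the start sites are shown for genes with near relatives in the cluster. Trim12c has a promoter close to those of Trim5 and Trim12a but a different readout, and so has Trim30a beside Trim30d. The promoters of the Trim34 pair are not closely related. Each runs from 100 bases before to 30 bases after the start site in the RefSeq annotation of GRCm38.p6, in the direction of the gene. Capitals mark the core of the ISRE, searched on both strands as GAAA, any 2 bases and GAAA again, which in each gene that holds it reads as its reverse complement along the gene. In the first group the windows are chr7:104288077-104288206 for Trim5, chr7:104315466-104315595 for Trim12a and chr7:104353320-104353449 for Trim12c, all on the minus strand.
Trim5: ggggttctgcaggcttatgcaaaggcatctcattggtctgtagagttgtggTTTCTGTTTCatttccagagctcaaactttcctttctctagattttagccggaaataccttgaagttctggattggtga
Trim12a: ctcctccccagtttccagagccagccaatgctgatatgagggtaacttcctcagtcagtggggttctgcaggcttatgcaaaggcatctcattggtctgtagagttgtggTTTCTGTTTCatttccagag
Trim12c: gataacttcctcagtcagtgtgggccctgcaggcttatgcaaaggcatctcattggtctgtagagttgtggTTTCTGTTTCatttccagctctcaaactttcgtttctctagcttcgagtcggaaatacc

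In the Trim30 group the windows are chr7:104465164-104465293 for Trim30a and chr7:104507820-104507949 for Trim30d, both on the minus strand.
Trim30a: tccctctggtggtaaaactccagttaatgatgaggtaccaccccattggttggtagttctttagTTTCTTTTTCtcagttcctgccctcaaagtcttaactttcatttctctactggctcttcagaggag
Trim30d: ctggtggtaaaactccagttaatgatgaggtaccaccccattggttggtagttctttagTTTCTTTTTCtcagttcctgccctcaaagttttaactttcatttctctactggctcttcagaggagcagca

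In the Trim34 pair the windows are chr7:104244357-104244486 for Trim34a and chr7:104329371-104329500 for Trim34b, both on the plus strand.
Trim34a: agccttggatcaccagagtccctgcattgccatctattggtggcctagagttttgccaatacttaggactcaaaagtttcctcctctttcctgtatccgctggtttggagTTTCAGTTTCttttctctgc
Trim34b: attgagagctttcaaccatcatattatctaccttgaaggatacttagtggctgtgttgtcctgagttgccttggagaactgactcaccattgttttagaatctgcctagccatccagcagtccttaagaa

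Over the full window of 300 bases (250 before to 50 after the start), the ISRE core was found in 6 of the 10 genes, Trim5, Trim12a, Trim12c, Trim30a, Trim30d and Trim34a. It was not found in Trim6, Trim30b, Trim30c or Trim34b, and it was present in 1131 of 32851 promoters of the same length (3.44%). Its first base lay 49 bases before the start in Trim5, 29 before in Trim12c, 36 before in Trim30a and 41 before in Trim30d, and at base 11 after the start in Trim12a and Trim34a. The E-box CACGTG was found in 0 of the 11 member windows (Trim30a has a second start site) and in 2349 (7.15%) of all promoters. The windows of Trim5 and Trim12a were identical over 241 aligned bases, and Trim12a and Trim12c shared 95% of 260. Trim30a and Trim30d shared 93.6% of 295 aligned bases. By contrast, the windows of Trim34a and Trim34b shared 44.7% of 273 although their coding sequences are nearly the same. A match is a description of the letters and does not show that a factor binds there.

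Between 38529644 and 44096737 reads were counted per library. Levels are given as CPM, a count scaled by the library's total and its normalization factor. WT replicate 3 had the highest summed level of 21 leukocyte markers among the WT libraries, 4301 CPM against 2457 to 3266 in the other 3. The values without WT replicate 3 are given where they matter. All 12 neuronal, oligodendrocyte and astrocyte markers of the spinal cord were present in every library. The count over the whole targeted gene, Arntl, was higher with the knockout label. Its level was 24.1, 24.2 and 22.5 CPM in the knockout-labelled libraries and 14.7, 15.3, 11.9 and 13.4 CPM in WT. The log2 fold change was 0.77 (SE 0.10, adjusted p = 0.0155, edgeR's quasi-likelihood test, adjusted by Benjamini-Hochberg). Without 1 library at a time, that call was kept in 3 of 7 fits. The tm1Bra allele removes only the part of the gene that encodes the DNA-binding domain, and a count over all exons does not single that part out. By qPCR of contused cord 3 days after injury, the study could not detect Bmal1 mRNA in its knockouts. It also reported less Nr1d1 and Dbp and more Cry1 there. Clock genes, picked here after their values were seen, did separate the groups: the BMAL1 targets Nr1d1 (log2 fold change -2.51), Nr1d2 (-2.68), Dbp (-1.85) and Per3 (-2.21) fell and Cry1 (1.58) and Npas2 (2.62) rose, each past an adjusted p of 0.05 in edgeR. The labels are kept, and the libraries labelled Bmal1-/- are called knockout-labelled in what follows, with WT as the reference for each direction.

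Of the 10 Trim genes, 4 fell in the knockout-labelled libraries (Trim12a, Trim30d, Trim5 and Trim34a), 1 rose (Trim34b), 4 did not pass the test (Trim30b, Trim30a, Trim6 and Trim12c), and Trim30c had too few counts to be tested. Among all 15743 genes tested, 0.915% were called lower and 0.654% higher at an adjusted p under 0.05. Groups of 3 and 4 libraries did not overlap in 6 of the 9 tested Trim genes in the lower direction and in 1 in the higher direction, where 13.5% and 13.4% of all genes tested were non-overlapping. The median log2 fold change of all genes tested was -0.006. Each p-value sets the difference between the groups against the variation between mice, and it does not cover the different origin of the groups. In bulk tissue, fewer cells of a type and less RNA per cell cannot be told apart.

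**Figure D1:**
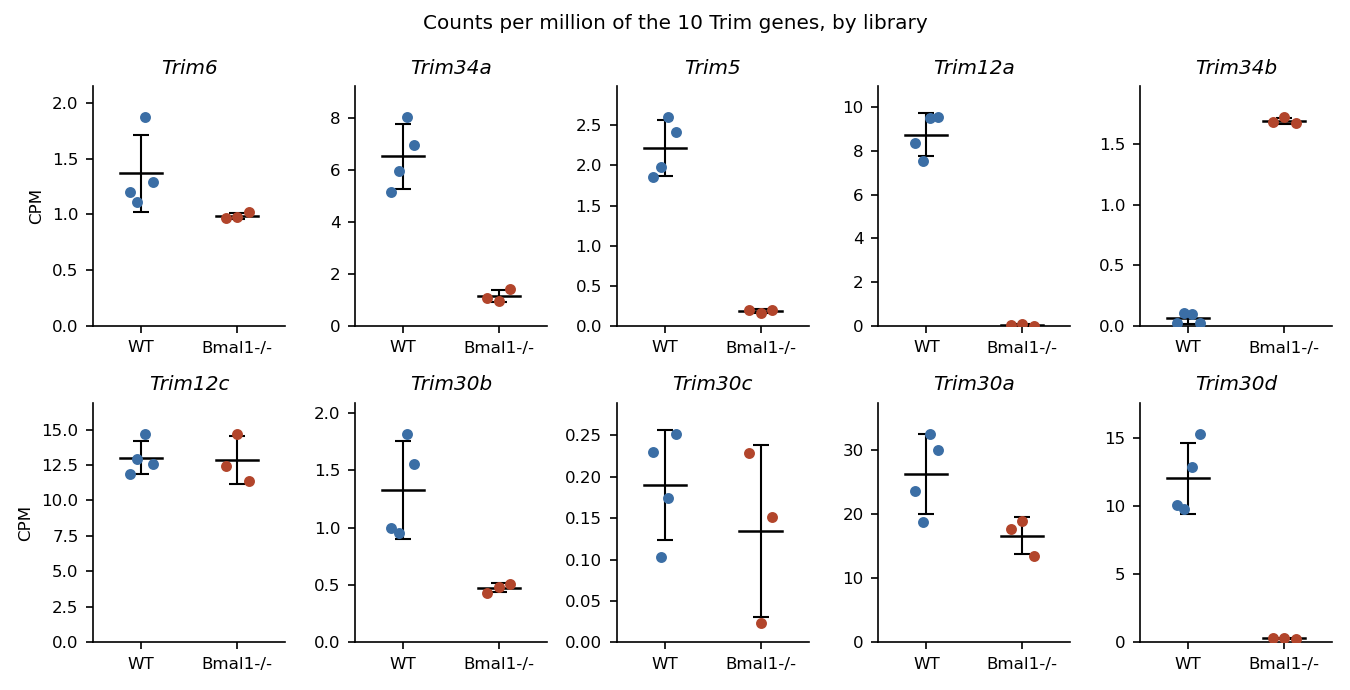
CPM of each Trim gene (y axis, starting at 0 and scaled separately for each gene) in the 4 WT and 3 Bmal1-/- libraries. Each point is a library, the horizontal bar is the mean and the error bar is the SD; Trim12a, Trim30d, Trim5 and Trim34a lie well below WT, Trim34b lies above it, and Trim12c, Trim30a and Trim30c overlap.

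Trim5, Trim12a and Trim12c are the mouse relatives of primate TRIM5, and they behaved differently from each other. Trim12a (ENSMUSG00000066258) had 328, 293, 381 and 378 counts in WT and 2, 3 and 0 counts in the knockout-labelled libraries. These are levels of 8.37, 7.53, 9.51 and 9.53 CPM against 0.0508, 0.0696 and 0 CPM. Its count was thus near the limit of detection in the knockout-labelled libraries and moderate in each WT library. Reads were counted against the reference sequence, so the count alone does not give the amount of transcript if the mice differ from it. The WT mean was 8.74 ± 0.97 CPM (SD, n = 4) and the knockout-labelled mean was 0.0402 ± 0.036 (SD, n = 3). The ratio of WT to Bmal1-/- was 213, with a 95% interval of 91.1 to 657 that covers counting error only (1380 against 5 counts). The fitted log2 fold change was -7.63 (SE 0.41, adjusted p = 0.000426, edgeR), and it ran from -8.26 to -7.10 with each library left out.

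Trim5 fell less far. Its level was 1.86, 1.98, 2.60 and 2.42 CPM in WT and 0.203, 0.162 and 0.203 CPM in the knockout-labelled libraries, where 8, 7 and 8 reads were counted. All 3 values lay below all 4 WT values, at 8.56% of the WT mean. The log2 fold change was -3.53 (SE 0.23, adjusted p = 0.000638, edgeR).

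Trim12c, whose product has been described as an activator of interferon and NF-kB signalling, was the abundant member of this group and did not pass the test. It was counted at 11.9, 12.9, 14.7 and 12.6 CPM in WT and at 12.4, 14.7 and 11.4 CPM in the knockout-labelled libraries. The groups overlapped, and their means were 13 ± 1.22 (SD, n = 4) and 12.8 ± 1.68 (SD, n = 3). The log2 fold change was -0.02 (SE 0.12, adjusted p = 0.934, edgeR). The contrast with Trim12a was also expressed as the share of Trim12a in the CPM of Trim12a and Trim12c together. This share was 40.2% ± 2.70 (SD, n = 4) in WT and 0.293% ± 0.256 (SD, n = 3) in the knockout-labelled libraries, a difference with p = 0.0286 in an exact two-sided permutation test, the smallest p that 3 against 4 libraries allow (adjusted over 3 such pairs, p = 0.0286). Since the Trim12a values were already far apart, this test could hardly return another p, and it adds no support of its own. The same holds for the shares of the Trim34 and Trim30 pairs below. Trim12a encodes the shorter protein, with a coding sequence of 891 bases against 1491 in Trim5 and in Trim12c.

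Trim34a and Trim34b moved in opposite directions. Human TRIM34, their counterpart, is an interferon-induced relative of TRIM5. Trim34a was at 5.15, 5.94, 8.01 and 6.93 CPM in WT and at 1.09, 0.975 and 1.40 CPM in the knockout-labelled libraries. No value overlapped, and the log2 fold change was -2.49 (SE 0.22, adjusted p = 0.00269, edgeR), which leaves 17.7% of the WT mean. Trim34b had 1, 4, 4 and 1 counts in WT, near the limit of detection, and 66, 74 and 66 counts in the knockout-labelled libraries. Its level was 1.69 ± 0.0239 CPM (SD, n = 3) in the latter and 0.0633 ± 0.0439 (SD, n = 4) in WT. The ratio of Bmal1-/- to WT was 26.7 (95% counting interval 14.2 to 56.5), and the fitted log2 fold change was 4.67 (SE 0.37, adjusted p = 0.00172, edgeR). Trim34b made up 0.947% ± 0.632 (SD, n = 4) of the pair's CPM in WT and 59.6% ± 4.69 (SD, n = 3) in the knockout-labelled libraries (exact permutation p = 0.0286, adjusted p = 0.0286). The coding sequences of the pair are 98.8% identical. Of the 75-base stretches of their transcripts, searched on both strands, 51.4% in Trim34a and 57.5% in Trim34b occur in no other gene. The pair shares 786 stretches, out of 2662 in Trim34a and 1848 in Trim34b. The other shared stretches of Trim34a match another gene. To the extent of the 786, the split of reads between the pair is uncertain. Their sum, given below, does not depend on that split, except for reads that match both and were not counted.

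The Trim30 genes include Trim30a, known as an inhibitor of Toll-like receptor signalling through NF-kB that acts on the adaptors TAB2 and TAB3. Trim30d was the one of them that changed most. It was counted at 10.1, 9.79, 12.9 and 15.3 CPM in WT and at 0.330, 0.325 and 0.254 CPM in the knockout-labelled libraries, which is 13, 14 and 10 counts against 381 to 605. The groups were far apart, with 2.52% of the WT mean left, and the log2 fold change was -5.29 (SE 0.25, adjusted p = 0.000293, edgeR). With each library left out it ran from -5.39 to -5.16.

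Trim30a, the most abundant Trim gene of the cluster, was at 23.6, 18.7, 32.5 and 29.9 CPM in WT and at 17.6, 18.9 and 13.4 CPM in the knockout-labelled libraries. Bmal1-/- replicate 2 lay above WT replicate 2, so the groups overlapped. Mean levels were 26.2 ± 6.23 CPM in WT (SD, n = 4) and 16.6 ± 2.86 in the others (SD, n = 3), and the log2 fold change of -0.65 (SE 0.21) did not pass edgeR's test (adjusted p = 0.167). DESeq2 called it, with an adjusted p of 0.0488. The share of Trim30d in the CPM of Trim30d and Trim30a was 31.7% ± 2.88 (SD, n = 4) in WT and 1.80% ± 0.0919 (SD, n = 3) in the knockout-labelled libraries (exact permutation p = 0.0286, adjusted p = 0.0286).

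Trim30b was low in all libraries, with 0.995, 0.951, 1.82 and 1.56 CPM in WT and 0.432, 0.487 and 0.508 CPM in the knockout-labelled libraries. Its groups did not overlap, yet the log2 fold change of -1.48 (SE 0.30) missed the threshold of edgeR's test (adjusted p = 0.0629). Without WT replicate 3 it was -1.29 and passed (adjusted p = 0.0413), and it also passed in DESeq2 (adjusted p = 0.00192). Trim30c had 1 to 10 counts per library and 46 in all and was removed by the filter on low counts; its groups overlapped, and no difference was detected (exact two-sided permutation p = 0.4).

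Trim6, an E3 ligase that makes unanchored ubiquitin chains in the type I interferon response, lies at the edge of the cluster. It was counted at 1.2, 1.11, 1.87 and 1.29 CPM in WT and at 0.966, 0.975 and 1.02 CPM in the knockout-labelled libraries. The groups did not overlap, but the log2 fold change of -0.47 (SE 0.22) did not pass (adjusted p = 0.267, edgeR). It was -0.28 without WT replicate 3, the library with the highest value.

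The changes did not follow a single gradient along the cluster. Trim12a and Trim34b, with the largest fall and the largest rise among the 9 tested members, are neighbours. Trim12c, next to Trim34b, did not pass the test, and Trim30d, with the next largest fall, is at the far end from Trim6. The called genes were found on both strands, with Trim34a and Trim34b on the plus strand and Trim5, Trim12a and Trim30d on the minus strand.

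**Figure D2:**
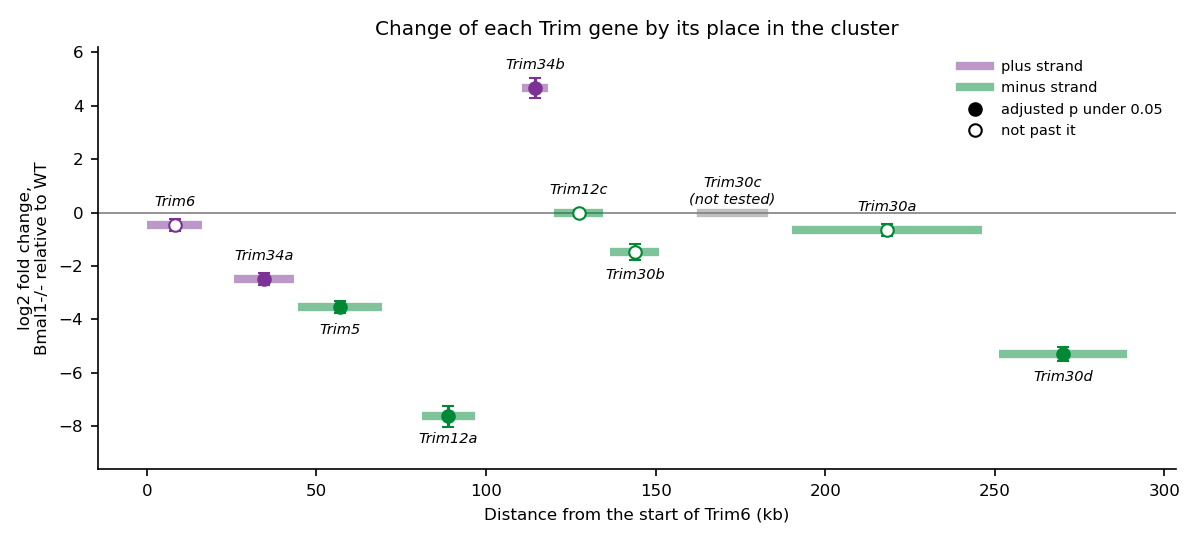
Log2 fold change of each Trim gene, Bmal1-/- relative to WT (y axis; error bars are the SE of edgeR's fit), against the place of the gene (x axis, kb from the start of Trim6; the thick line spans the gene, coloured by strand). Filled points passed an adjusted p of 0.05; they run from -7.63 for Trim12a to 4.67 for its neighbour Trim34b, and Trim30c was not tested.

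Because reads can be divided between near-identical copies, counts were also summed over each group. The sum of Trim5, Trim12a and Trim12c was 22.1, 22.4, 26.8 and 24.5 CPM in WT and 12.7, 14.9 and 11.6 CPM in the knockout-labelled libraries, a log2 fold change of -0.87 (SE 0.12). The Trim30 sum was 34.9, 29.5, 47.4 and 47.0 CPM in WT and 18.6, 19.7 and 14.3 CPM in the knockout-labelled libraries (log2 fold change -1.18, SE 0.20). For the Trim34 pair the sum was 5.18, 6.04, 8.11 and 6.96 CPM in WT and 2.77, 2.69 and 3.07 CPM in the knockout-labelled libraries (log2 fold change -1.21, SE 0.18). No sum overlapped between the groups, so each group of relatives was lower as a whole, with the rise of Trim34b included. Summed over all 10 genes, the level was 71.6 ± 12.2 CPM (SD, n = 4) in WT and 34.4 ± 4.16 CPM (SD, n = 3) in the knockout-labelled libraries, 48.1% of WT (log2 fold change -1.06, SE 0.15). Sums over chosen genes are given without a p-value.

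**Figure D3:**
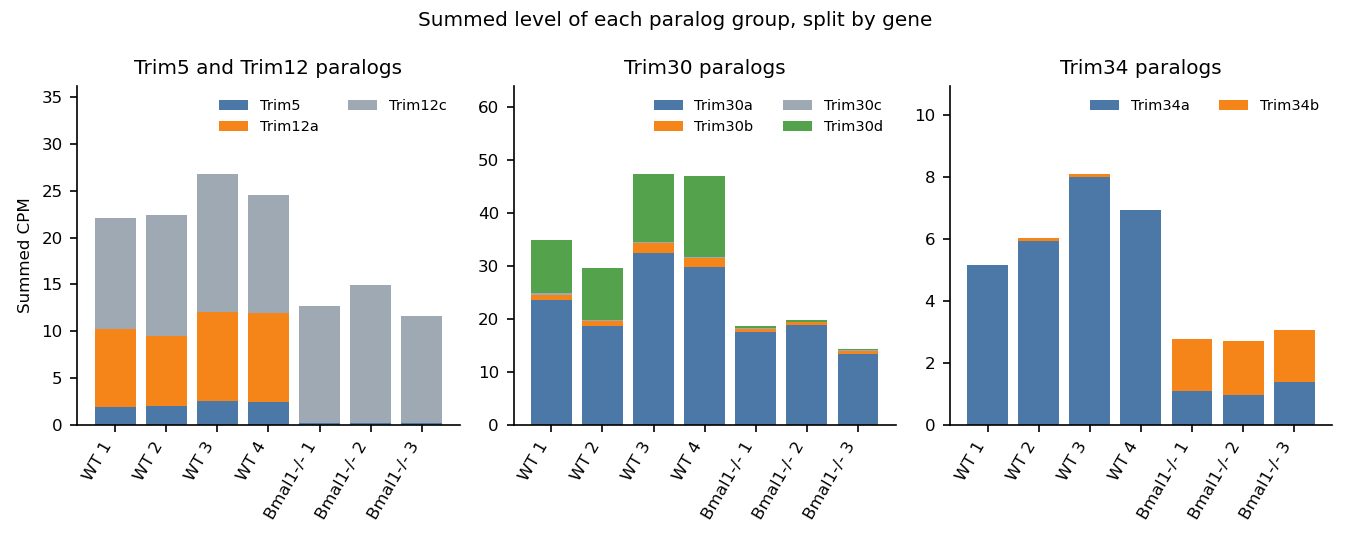
Summed CPM (y axis) of the Trim5 and Trim12, the Trim30 and the Trim34 genes in each library (x axis, WT 1 to 4 and Bmal1-/- 1 to 3), with each bar split by gene. All 3 sums are lower in the Bmal1-/- libraries, where Trim12c and Trim30a make up nearly all of their sums and Trim34b takes 54.5 to 63.8% of the Trim34 sum.

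The make-up of each sum differed as well. Trim12c made up 51.2 to 57.5% of its group in WT and 98.0 to 98.4% in the knockout-labelled libraries. Trim30a made up 63.3 to 68.5% of the Trim30 sum in WT and 93.6 to 95.8% in the knockout-labelled libraries, while Trim30b was a small part of it (2.85 to 3.85% and 2.33 to 3.54%). Of the difference of 37.2 CPM between the means of all 10 genes, Trim30d gave 31.5%, Trim30a 25.7%, Trim12a 23.4%, Trim34a 14.4% and Trim5 5.45%. Trim34b, which rose, counted against it by -4.38%.

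Levels were compared between genes as CPM per kb of exon. In WT the order was Trim30a (mean 6.36 CPM per kb), Trim12c (3.48), Trim30d (3.20), Trim34a (2.51), Trim12a (1.51), Trim5 (0.600), Trim6 (0.279), Trim30b (0.177), Trim30c (0.111) and Trim34b (0.0342). The WT ranges of Trim12c and Trim30d, of Trim30d and Trim34a, of Trim6 and Trim30b and of Trim30b and Trim30c overlapped. Library by library, Trim30d lay above Trim34a and Trim6 above Trim30b in every WT library. The order of Trim12c and Trim30d and of Trim30b and Trim30c differed between WT libraries and is not resolved. In the knockout-labelled libraries, Trim30a (4.05 CPM per kb) and Trim12c (3.43) were at the top, followed by Trim34b (0.914), Trim34a (0.445) and Trim6 (0.201). Then came Trim30d (0.0806), Trim30c (0.0785), Trim30b (0.0632), Trim5 (0.0514) and Trim12a (0.00695). There the ranges of Trim30a and Trim12c, of Trim30d and Trim30c and of Trim30c and Trim30b overlapped. Trim30a still lay above Trim12c in each of these libraries, whereas the order of the other overlapping pairs differed between them. Among the WT libraries, replicate 3 held the highest CPM of 6 of the 10 genes and replicate 4 that of 3, while replicate 2 held the lowest CPM of 6.

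The counted reads can be assigned only where the genes differ in sequence. Coding sequences were 97.1% identical between Trim5 and Trim12a, 96.6% between Trim5 and Trim12c, 96.4% between Trim12a and Trim12c, and 90.1% between Trim30a and Trim30d. Trim6 had no close copy in the cluster, with 58.1 to 63.6% identity to the others. Taking every stretch of 75 bases in the annotated transcripts, the length of the sequencing kit, 94.4% of those of Trim12a and 94.6% of those of Trim30d occurred in no other gene. The corresponding shares were 79.4% for Trim5, 82.7% for Trim12c, 95% for Trim30a, 99.5% for Trim6, 99.6% for Trim30b and 100% for Trim30c. Trim12a and Trim30d, which fell the most, thus have mostly distinct transcripts in the reference, whereas Trim34a and Trim34b share 786 stretches and Trim5 and Trim12c share 474. This calculation uses the reference sequence, and the sequence of the mice themselves was not analysed here.

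**Figure D4:**
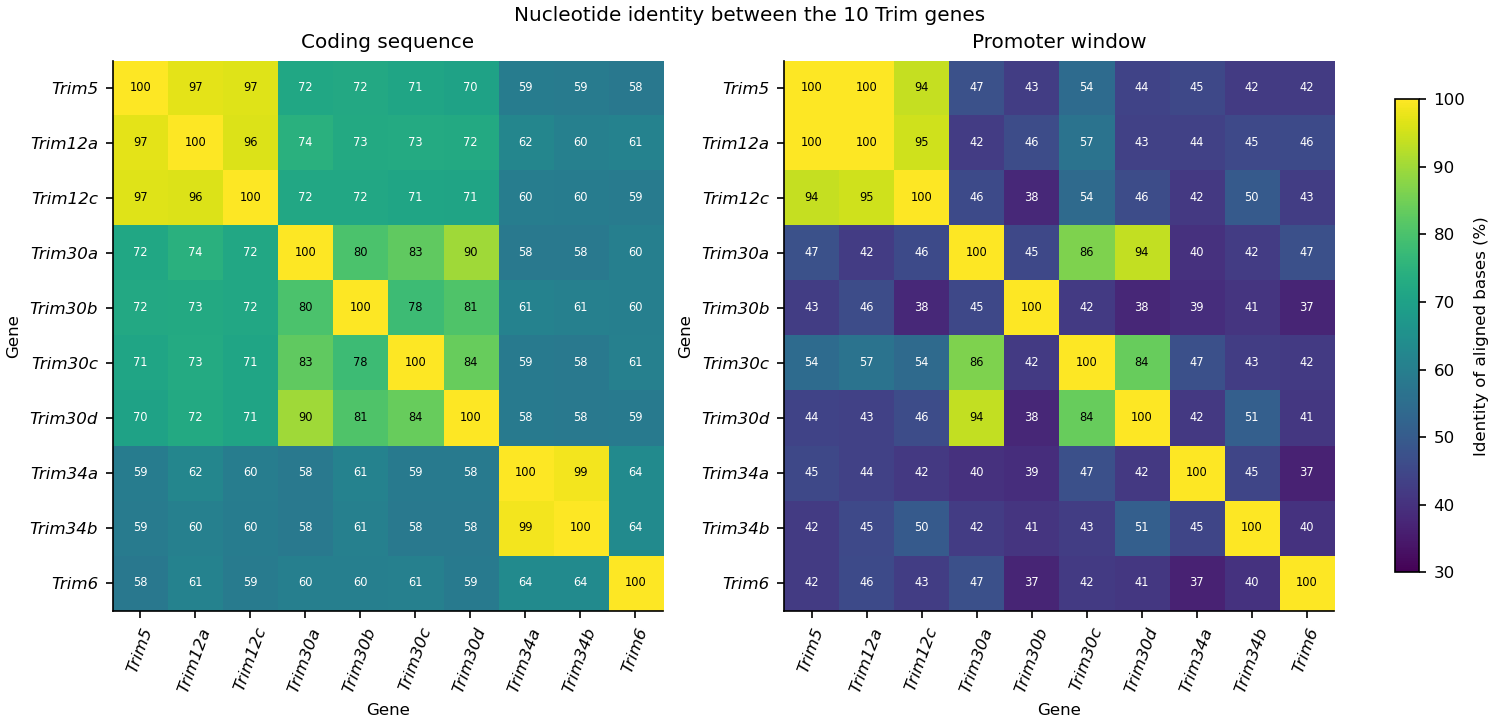
Percent identity of aligned bases for each pair of Trim genes (both axes list the genes), for the coding sequence on the left and for the promoter window of 300 bases on the right. Coding identity is 96.4 to 97.1% among Trim5, Trim12a and Trim12c and 98.8% between Trim34a and Trim34b, whereas the promoters of the Trim34 pair share 44.7%.

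Genes around the cluster were examined in the same fit. Within 1 Mb of the cluster the table held 106 other genes, of which 65 had no count in any library and 10 could be tested. The adult beta-globin gene Hbb-bt (chr7:103812524-103813996) was called lower among them, at 2.28 ± 0.912 CPM (SD, n = 3) with the knockout label and 22.7 ± 13 (SD, n = 4) in WT (log2 fold change -3.31, SE 0.50, adjusted p = 0.0266, edgeR). That call was kept in 2 of the 7 fits that left out a library, those without WT replicate 3 or 4. Red cell genes on other chromosomes and the neighbouring Hbb-bs, looked up after their values were seen, had estimates in the same direction that did not pass: Hbb-bs -2.33, Hba-a1 -2.53, Hba-a2 -2.50, Alas2 -2.47 and Slc4a1 -2.05. The median log2 fold change of the 10 was 0. Between the cluster and Arntl, 59 of 170 genes could be tested, with a median of 0.01. Gvin1, an interferon-inducible GTPase gene (chr7:106156556-106215326), was the 1 called, with 0 counts in each knockout-labelled library and 19 to 28 in WT (adjusted p = 0.00851, edgeR), and it stayed called in 7 of 7 such fits. Without WT replicate 3, 9 genes of that stretch passed, in a fit that called 439 lower and 291 higher genes in all. DESeq2 called 6 lower and 3 higher in the stretch, and 922 lower and 573 higher genes in all. Groups did not overlap in 10 of the 59 in the lower and in 9 in the higher direction (13.5% and 13.4% of all genes tested). Of the 59, 28 had lower and 31 higher estimates.

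Trim genes elsewhere in the genome were compared in the same way. Of 58 in the table, 42 could be tested, with a median log2 fold change of -0.08, and 24 had lower and 18 higher estimates. Trim9, which encodes a neuronal E3 ligase (chr12:70244533-70347614), was the 1 called. It was at 201 ± 13.3 CPM (SD, n = 3) in the knockout-labelled libraries and 108 ± 17.5 (SD, n = 4) in WT, a log2 fold change of 0.89 (SE 0.13, adjusted p = 0.0266, edgeR). That call was kept in 1 of the 7 fits, the one without WT replicate 3, where 2 Trim genes were called. None of the 42 was called lower by edgeR. DESeq2 called 3 of them lower and 2 higher, where it called 922 lower and 573 higher genes in all. An unadjusted p under 0.05 was found for 14, where 20.9% of all genes tested had one.

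The 3 lists of pathways in which TRIM proteins act held no gene that edgeR called. Among 42 interferon-stimulated genes the median log2 fold change was -0.42, and 38 had lower estimates. Their summed level was 666 to 971 CPM in the knockout-labelled libraries and 848 to 1053 in WT, with overlap. A difference between the change of this list and that of the Trim genes was not tested. At an unadjusted p under 0.05 there were 14 of these 42 genes, where 20.9% of all genes tested were. DESeq2 called 4 lower and 1 higher, where it called 922 lower and 573 higher genes in all. The 18 genes of interferon signalling had a median of -0.20 (-0.13 without WT replicate 3), with 5 at an unadjusted p under 0.05 and 2 called lower by DESeq2. Among 24 genes of Toll-like receptor and NF-kB signalling the median was -0.07 (-0.02 without WT replicate 3), with 2 at an unadjusted p under 0.05 and 0 called by DESeq2.

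Markers of other cells that express Trim genes or could be in the sample were also read. Of 18 tested leukocyte markers edgeR called 0, 2 had an unadjusted p under 0.05 and DESeq2 called 0. Their median log2 fold change was -0.26, or -0.12 without WT replicate 3, and their sum was 2411 to 3028 CPM in the knockout-labelled libraries and 2457 to 4301 in WT. Endothelial markers had a median of -0.60 over 8 genes (-0.36 without WT replicate 3), with sums of 382 to 443 against 459 to 766 CPM. All 8 had lower estimates, 5 had an unadjusted p under 0.05 (20.9% of all genes tested) and DESeq2 called 3 lower (922 genes in all). Cdh5, the cadherin of endothelial junctions, was called among them (log2 fold change -0.85, SE 0.15, adjusted p = 0.0466, edgeR), in the full data and without WT replicate 3 but in none of the other 6 fits. Skeletal muscle markers, which are foreign to the cord, fell in 6 of 8 cases, with a sum of 5.34 to 7.08 CPM in the knockout-labelled libraries and 50.5 to 65.1 CPM in WT. Among the 6, Atp2a1 (log2 fold change -3.62) and Ckm (-3.57), a calcium pump and a creatine kinase of muscle fibres, had the largest falls. The myosins Myh4 (-5.17) and Myh2 (-4.39) had larger estimates and no overlap, but did not pass. Between 3 (without Bmal1-/- replicate 1 or 3) and 8 (without WT replicate 3) of the 8 were called with a library left out. The 12 spinal cord markers went the other way, with a median log2 fold change of 0.38 (0.15 without WT replicate 3). Among them 9 had higher and 3 lower estimates, and 4 did not overlap in the higher direction (13.4% of all genes tested). No call was made by edgeR, 1 had an unadjusted p under 0.05 and DESeq2 called 1 higher. Their sum was 34185 to 40507 CPM in the knockout-labelled libraries and 30490 to 38879 in WT. The part of any of these cells in the Trim values was not tested.

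Across the 7 libraries, the genes whose log2 CPM followed the sum of the 10 Trim genes most closely were Traip (Pearson's r 0.993), Casp1 (0.991), Zgrf1 (0.990), Pgap2 (0.990) and St3gal4 (0.990). These correlations describe 7 libraries that fall into the 2 genotypes. The log2 fold changes of the 5 genes, from -0.77 for Casp1 to -0.33 for Zgrf1, were smaller in size than that of the Trim sum. Pgap2 lies on chromosome 7, as the Trim genes do, and the others lie on chromosomes 9 and 3. Casp1 (adjusted p = 0.0419), Pgap2 (0.0325) and St3gal4 (0.0168) were called lower by edgeR. Traip (0.0646) and Zgrf1 (0.11) were not. With 1 library left out, the calls of Casp1, Pgap2 and St3gal4 were kept in 1, 1 and 4 of 7 fits.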

How the data were processed

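The authors made stranded poly-A libraries from 7 mice, sequenced them with a kit of 75 cycles, aligned the reads with Tophat2 to GRCm38 and counted them per gene with HTSeq 0.10.0 (FastQC 0.10.1 is also named in the submitters' processing notes). They deposited raw counts per gene, with no normalization. The annotation release, the strand setting and the handling of reads with several matches are not given in the sources used here. The members, gene lists and tests were chosen with earlier results of these data known.

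Symbols, positions and exon lengths came from GENCODE release 21 for mouse (GRCm38), which gave a symbol to 21939 of 21965 genes. The filterByExpr filter of edgeR, given the genotype, kept 15743 genes, which were normalized with TMM and compared with edgeR's quasi-likelihood test (edgeR 4.0.16, limma 3.58.1, R 4.3.3). P-values were adjusted over all genes tested with Benjamini-Hochberg, with a threshold of 0.05. The SE is the log2 fold change divided by the square root of F. Single values used exact two-sided permutation tests over libraries (scipy 1.17.1). Likeness to the Trim sum used log2 CPM with a prior count of 2. Coding and promoter sequences were aligned with mafft 7.526, and figures were made in python 3.11.15 with matplotlib 3.10.9. The test was first tried on simulated counts.

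Genes named are the 10 members, Arntl, the called genes near the cluster and among other Trim genes, up to 5 called genes of each list by size of change, and the 5 genes most like the Trim sum. The clock genes, the red cell genes other than Hbb-bt and the myosins Myh4 and Myh2 were named after their values were seen. Alternatives were DESeq2 1.42.0, RLE size factors, a looser filter (1 count in all), a stricter filter (a mean of 10 counts), a term for sex, a replicate block and each library left out in turn. Labels do not say which WT mouse was the littermate, so no fit without it was made.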

Additional observations from a re-analysis of the deposited data

How the results depend on the processing

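The 5 called Trim genes (Trim5, Trim12a, Trim30d, Trim34a and Trim34b) kept direction and call under DESeq2, RLE size factors, the looser and the stricter filter, a term for sex and in 7 of 7 fits without 1 library, and lost it under the replicate block. Titles number the mice of both groups. Same-numbered mice were of the same sex (female for 1 and 2, male for 3), so the block also takes up sex. WT replicate 4, a male, has no counterpart. Same-numbered mice did not deviate together (correlations -0.174, 0.183 and -0.295), and not every library correlated best with its own number. The labels name no other pairing. With the block, edgeR called 0 genes of all tested in either direction (1590 had an unadjusted p under 0.05) and 0 Trim genes of the cluster (6 had one). The blocked log2 fold changes were -3.47 for Trim5 (adjusted p = 0.0786, edgeR), -7.58 for Trim12a (0.0765), -5.15 for Trim30d (0.0715), -2.45 for Trim34a (0.081) and 4.44 for Trim34b (0.122). DESeq2 called 922 lower and 573 higher genes in all, and 27 to 439 and 30 to 291 were called with each library left out (lowest without Bmal1-/- replicate 1, highest without WT replicate 3). Without 1 library, 4 to 5 Trim genes of the cluster were lower and 1 was higher. The estimate of Trim12c, near 0, ran from -0.13 to 0.056 and changed sign in 3 of these fits (0.007, 0.056 and 0.046). Among Trim genes elsewhere 1 gene was called, 5 with DESeq2, 2 with the looser filter, 0 with sex, 0 with the block, and 0 to 2 without 1 library. Over the interferon, NF-kB, leukocyte and endothelial lists 1 gene was called, 10 with DESeq2, 0 with sex, 0 with the block and 0 to 5 without 1 library. Of the genes around the cluster 2 were called, 11 with DESeq2, 1 with sex, 0 with the block and 1 to 11 without 1 library. Among the fits without 1 library, the highest of each of these counts came without WT replicate 3. The cause of these differences was not tested. Depth limits Trim30c, and Trim12a and Trim34b in the group where each had very few counts.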
